A study of Mus musculus with 2 samples.

Results

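The genes described here carry provisional symbols in the deposited table: Gm numbers, RIKEN clone names that end in Rik, and names of the genomic clones RP23 and RP24. They were chosen by symbol, and counts were used only to merge rows with like counts. The choice was made with earlier results of these data known. Of the 3134 listed rows, 78 matched these patterns, and 6 of them, set aside by symbol, were left out. The remaining 72 rows counted as 71 models, because RP23-407E2.5 and RP23-407E2.6 had identical counts. The RNA came from NIH3T3, an established mouse fibroblast line grown without any treatment or genetic change in the labels. In enhanced crosslinking and immunoprecipitation (eCLIP), cells are irradiated with ultraviolet light so that RNA stays bound to the proteins in contact with it, and the RNA that comes down with a chosen protein is sequenced. The HP1 alpha antibody gave 1 library, and 1 library without antibody served as the input. Each group thus had 1 library, no spread between replicates could be measured, and no test was made.

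HP1 alpha, encoded by Cbx5, binds histone H3 methylated at lysine 9 and helps to compact heterochromatin, and it can also bind RNA. A Gm symbol marks a gene model predicted from sequence or set up by annotators, and a Rik symbol marks a gene known from a RIKEN full-length cDNA. Such symbols are placeholders, so they cover protein-coding genes, long noncoding RNAs (lncRNAs) and read-through models alike. A read-through model joins neighbouring genes that are transcribed together without a break, and its exons are largely those of the genes it joins.

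Summed over all listed rows, the HP1 alpha library held 513965 counts and the input 830031. These sums are not sequencing depths, since every listed row had at least 100 counts in 1 of the libraries. Of 10 fibroblast markers 8 were listed, and of the 12 immune, epithelial and endothelial markers none was listed, which at this listing limit does not show their absence. Each ratio below divides the HP1 alpha share of the listed counts by the input share, with an exact (Clopper-Pearson) 95% interval. These intervals hold counting error alone, and some reads may be PCR copies. The rule for calling a model higher or lower asked for more than 2-fold on the log2 scale and an interval that left out 1.

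The 71 models lay close to the bulk of the table, with a few at each edge. Their HP1 alpha counts ran from 21 to 2838 (median 122), and their input counts from 99 to 3646 (median 176). Their ratios ran from 0.332 to 2.50, and the median ratio was 0.931, against 0.865 over all listed rows. On the log2 scale these medians were -0.10 and -0.21. Of the 71, 27 (38.0%) had a ratio above 1, against 30.9% of all listed rows. The interval lay above 1 for 13 models and below 1 for 17, while those of all listed rows did so in 15.4% and 32.6%. With TMM or DESeq2 scaling, which add 0.20 and 0.21 to every log2 ratio, the median of the models became 0.10 and 0.11, so its sign depends on the scaling. Its distance from the median of all rows does not. Both scalings left 44 of the 71 with a ratio above 1, against 48.7% (TMM) and 50% (DESeq2) of all listed rows. Under TMM scaling 18 intervals of the models lay above 1 and 9 below, against 23.3% and 13.7% of all listed rows.

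**Figure D1:**
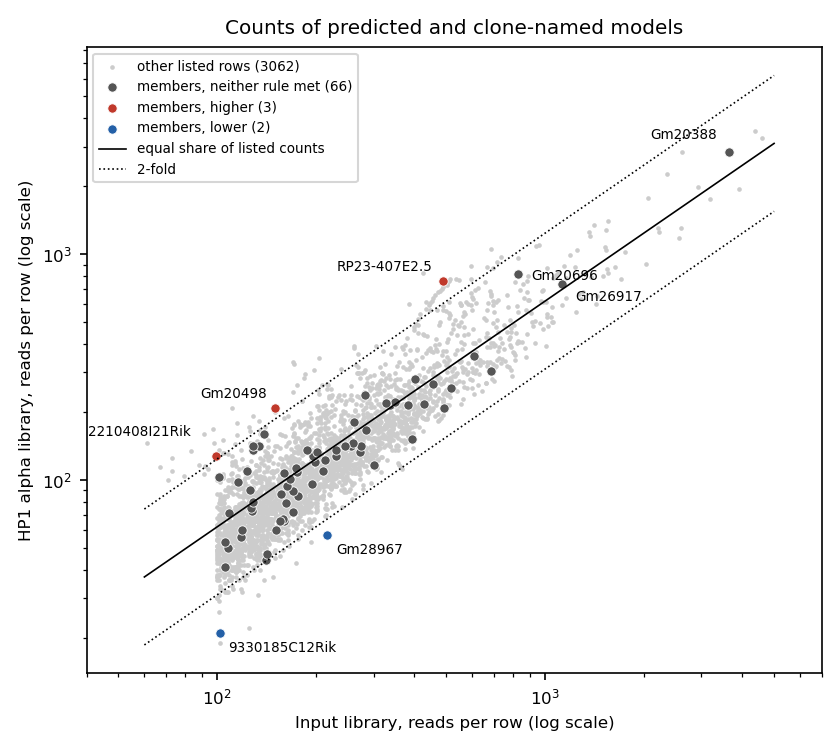
Reads per row in the input (horizontal, log scale) and in the HP1 alpha library (vertical, log scale) for the models (large points) and the other 3062 listed rows (grey). The solid line marks equal shares of the listed counts and the dotted lines 2-fold; 3 models lie above and 2 below the dotted lines, and Gm20388 has the most reads, 2838 and 3646.

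Of the 71 models, 3 were called higher in the HP1 alpha library, beside 2.36% of all listed rows. They were RP23-407E2.5, Gm20498 and 2210408I21Rik. A further 2 were called lower, 9330185C12Rik and Gm28967, beside 0.83% of all listed rows. The other 66 met neither rule. Like rows were merged among the models but not among all listed rows, where protocadherin rows with nearly the same counts, given below, were each counted. With all 72 rows of the models counted, 4 were called higher. Counts this small, from 1 library a group, do not set these models apart from the table.

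RP23-407E2.5 (ENSMUSG00000102836.1), counted once with RP23-407E2.6 (ENSMUSG00000103125.1), had 757 HP1 alpha reads against 489 input reads. The ratio was 2.50 (2.23 to 2.81), the highest of the models. Neither row had a match in the annotation used here, so its place in the genome is not given. The other listed rows with both counts within 5% of it were all of the protocadherin gamma family, which encodes cell adhesion proteins from a cluster of nested genes. Pcdhga2 had 763 and 508 reads, Pcdhgb1 741 and 503, Pcdhga4 727 and 501, and PCDHGB6 755 and 503. These 4 rows had ratios from 2.34 to 2.43 and were also called higher. Among rows with at least 400 counts over both libraries, 184 pairs agreed within 1%, and of the 181 pairs with known positions 0 overlapped. The RP23-407E2 rows had no known position and were not among the 181, so those pairs do not bear on them. Whether the RP23-407E2 rows overlap the protocadherin rows was not tested.

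2210408I21Rik (ENSMUSG00000071252.5) is a protein-coding gene on chromosome 13 from 77135531 to 77613785 in GRCm38.p6, 478.3 kb and the widest span of the models. It had 127 HP1 alpha reads and 99 input reads, a ratio of 2.07 (1.58 to 2.72). With an input count under the limit of 100, it entered the table by its HP1 alpha reads alone and needed at least 100 of them. Equal counts in the 2 libraries give a ratio of 1.615, as for Rbm4 with 104 in each, so its ratio had to exceed 1.615. Relative to the median of the 200 listed genes nearest in span, its log2 ratio was 0.52, less than 2-fold.

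9330185C12Rik (ENSMUSG00000097648.1) had 21 HP1 alpha reads and 102 input reads. The ratio was 0.332 (0.197 to 0.536), the lowest of the models. Gm28967 (ENSMUSG00000099587.1) had 57 and 217 reads and a ratio of 0.424 (0.311 to 0.570). Neither had a match in the annotation. Both belong to the 10 models with fewer than 62 HP1 alpha reads, for which the listing limit alone fixed a ratio below 1, though not its size.

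Next below the rule for higher came 6 models. Umad1 (Gm16039 in the table), a gene named for a domain shared with the endosomal sorting machinery, had 159 and 139 reads and a ratio of 1.85 (1.46 to 2.34). 2900026A02Rik, the mouse counterpart of the KIAA1671 cDNA, had 141 and 129 reads and a ratio of 1.77 (1.38 to 2.26). Both passed the rule under TMM and DESeq2 scaling, where 4.05% and 4.21% of all listed rows were called higher. 1700025G04Rik had 142 and 134 reads and 1.71 (1.34 to 2.18), and 2610008E11Rik had 136 and 129 reads and 1.70 (1.33 to 2.18). The unmatched models Gm15406 and Gm20696 had 1.65 (1.24 to 2.19) and 1.59 (1.44 to 1.75). Gm20696 rested on 818 and 830 reads, so its interval was the narrowest of the 6. At the other end, Tmem94 (2310067B10Rik), a gene of a transmembrane protein, had 44 and 141 reads and a ratio of 0.504 (0.351 to 0.712). The unmatched model Gm20488 had 47 and 142 reads and 0.534 (0.376 to 0.748). With fewer than 62 HP1 alpha reads, Tmem94 and Gm20488 could only be listed with a ratio below 1. With a limit of 1.5-fold in place of 2-fold, 9 models were higher and 8 lower, beside 7.63% and 12.3% of all listed rows.

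**Figure D2:**
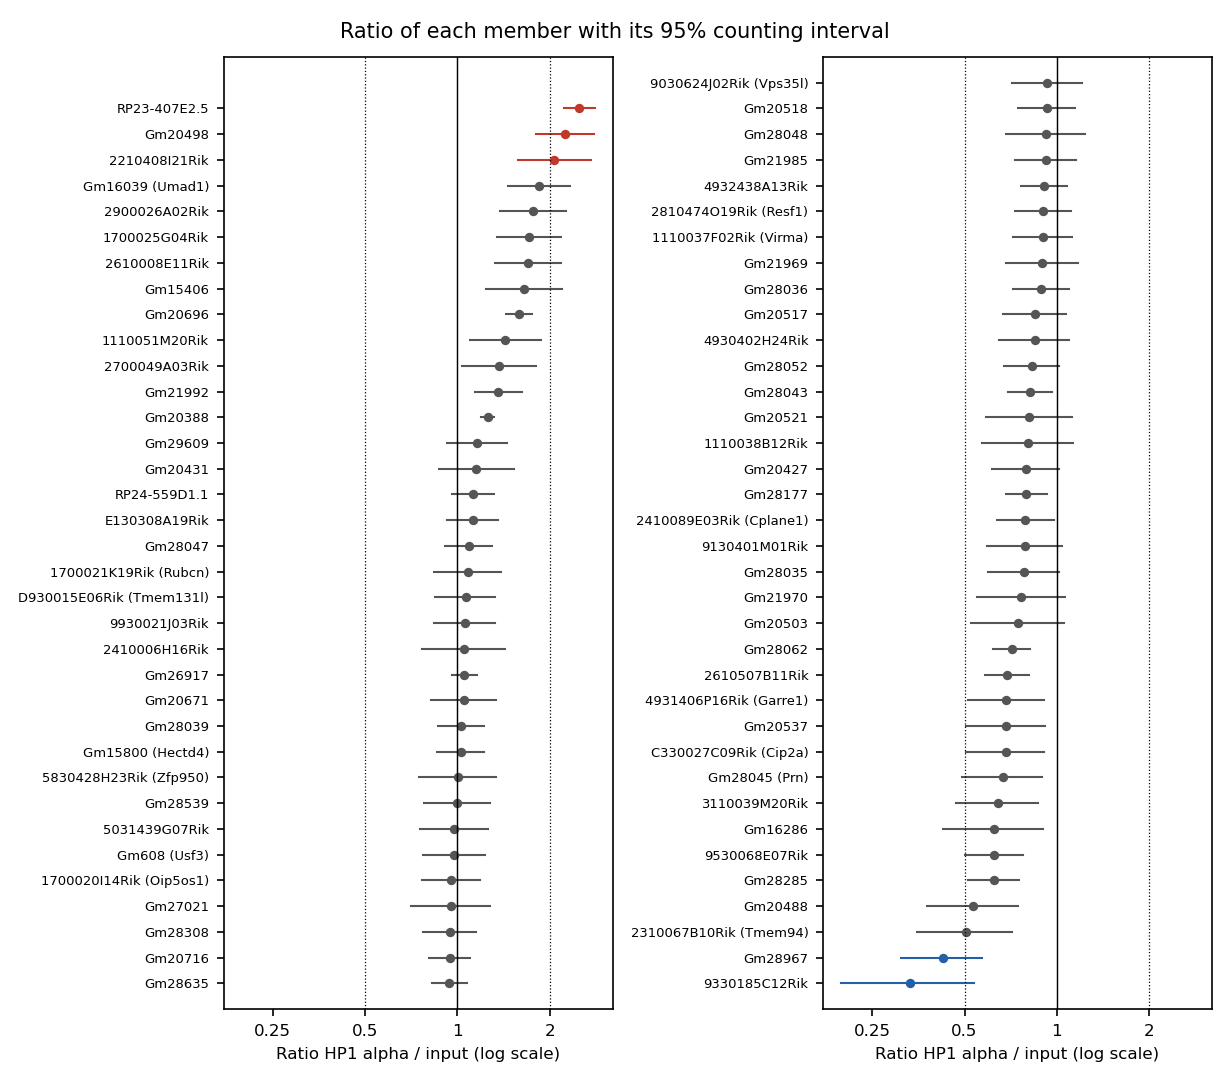
Ratio of HP1 alpha over input (horizontal, log scale) of each of the 71 models, with its 95% counting interval as a line; current RefSeq names stand in parentheses. Red marks the 3 models called higher, blue the 2 called lower and grey the rest; the solid line is a ratio of 1 and the dotted lines are 0.5 and 2.

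Of the models, 7 were read-through models by their RefSeq synonyms or start sites. Gm20498 joins Synj2bp, which encodes a mitochondrial outer membrane protein, to Cox16, which encodes an assembly factor of cytochrome c oxidase. Gm20716 joins Dpm1, a subunit gene of dolichol-phosphate mannose synthase, to Adnp, a homeobox zinc finger gene whose protein is a known partner of HP1 in chromatin. Gm28043 joins Rnf8, a ubiquitin ligase gene of the DNA damage response, to the mRNA cap methyltransferase gene Cmtr1. Gm21992 joins the RNA-binding protein genes Rbm14 and Rbm4. Gm28045, now Prn, joins the prion protein gene Prnp to its neighbour Prnd. Gm20517 starts with the Mediator subunit gene Med20 and spans the deubiquitinase gene Usp49, and Gm27021 joins Emc8, a subunit gene of the ER membrane protein complex, to 1190005I06Rik.

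In RefSeq, 6 of these 7 had a promoter window, and each had the same window as the first gene it joins. Gm20517 was counted as a read-through model by this shared window alone, so for it the match was given by the rule. The 3 windows below, from RefSeq in GRCm38.p6, are shown because a model and its first gene share every base of them. Each runs from 200 bases before the transcript start through its first 30 bases, which are in capitals.
Gm20498 and Synj2bp, minus strand of chr12:81532882-81533111: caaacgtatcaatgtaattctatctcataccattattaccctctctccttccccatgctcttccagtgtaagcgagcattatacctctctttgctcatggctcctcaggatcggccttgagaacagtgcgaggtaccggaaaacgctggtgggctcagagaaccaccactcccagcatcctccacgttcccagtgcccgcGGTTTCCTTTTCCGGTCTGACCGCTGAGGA
Gm20716 and Dpm1, minus strand of chr2:168230350-168230579: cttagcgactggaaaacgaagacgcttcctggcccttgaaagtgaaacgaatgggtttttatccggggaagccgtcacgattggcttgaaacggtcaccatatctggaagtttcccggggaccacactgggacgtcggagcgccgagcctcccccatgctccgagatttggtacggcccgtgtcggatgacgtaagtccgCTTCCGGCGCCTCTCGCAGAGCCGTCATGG
Gm28045 (Prn) and Prnp, plus strand of chr2:131909728-131909957: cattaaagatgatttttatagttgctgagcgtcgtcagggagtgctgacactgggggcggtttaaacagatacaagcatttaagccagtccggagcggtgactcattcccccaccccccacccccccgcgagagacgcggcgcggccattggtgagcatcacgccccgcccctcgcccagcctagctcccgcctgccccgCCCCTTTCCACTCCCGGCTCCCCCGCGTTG
The CG dinucleotide (which reads the same on both strands) occurred 11, 23 and 19 times in the 3 windows, in the order given. The median was 6 over all 32851 windows of this length, but 19 over the 2515 other listed genes with a window. Beside other listed genes these windows were thus not rich in CG as a set.

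The read-through models had more reads than the listed genes inside them. For each of 6 models, at least 1 gene within its span was also listed, and this held in both libraries for all 7 such pairs. Among 8 nested pairs of other listed genes, protocadherins left out, the outer gene had at least the reads of the inner in 7. Gm20716 had 265 and 454 reads and a ratio of 0.943 (0.807 to 1.10), and Adnp had 226 and 398 reads and 0.917 (0.775 to 1.08). Gm28043 had 217 and 428 reads and a ratio of 0.819 (0.692 to 0.966), and Cmtr1 had 184 and 376 reads and 0.790 (0.659 to 0.945). In both pairs the model and the gene had ratios within each other's interval. Adnp and Cmtr1 lie wholly within these models, so the same reads may be counted for both, and the likeness shows nothing further. Under TMM scaling the interval of Gm28043 held 1 (0.794 to 1.11). Prn had 66 and 160 reads, and Prnp had 64 and 158, so that they differed by 2 reads in each library. Gm20517 had 110 and 210 reads, against 82 and 165 for Usp49. Gm21992 had 237 and 282 reads and a ratio of 1.36 (1.14 to 1.62), while Rbm14 had 103 and 131 reads and Rbm4 had 104 in each library. Gm27021, without a listed gene inside it, had 75 and 127 reads and a ratio of 0.954 (0.707 to 1.28).

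Gm20498 (ENSMUSG00000021139.13), on chromosome 12 from 81358852 to 81532911, was the only read-through model called higher. It had 208 HP1 alpha reads and 150 input reads, a ratio of 2.24 (1.81 to 2.78). Cox16, which lies wholly within it from 81358852 to 81485137, had 160 and 91 reads and a ratio of 2.84 (2.18 to 3.71). If every Cox16 read was also counted for Gm20498, then 76.9% of the HP1 alpha reads of the model and 60.7% of its input reads were those of Cox16. The remaining 48 and 59 reads had a ratio of 1.31 (0.879 to 1.96), and Gm20498 was then no longer called. The same subtraction left ratios of 1.13 for Gm20716, 1.03 for Gm21992, 1.03 for Gm28043 and 1.00 for Gm20517, each with an interval that held 1. For Prn it left 2 reads in each library, too few for a ratio. Whether reads were counted for both genes of a pair is not given in the sources used here.

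**Figure D3:**
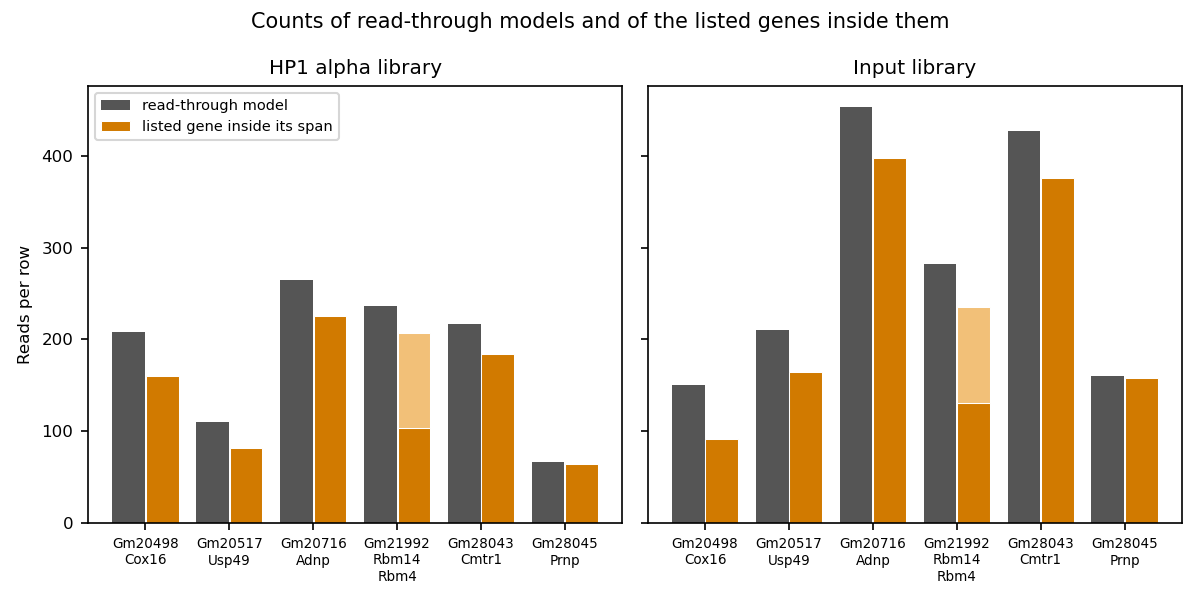
Reads (vertical, linear scale from 0) of 6 read-through models (grey) and of the listed genes inside them (orange) in the HP1 alpha library (left) and the input (right). For Gm21992 the dark part of the bar is Rbm14 and the light part Rbm4; every grey bar is taller than its orange bar, by 2 reads in each library for Gm28045.

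A different kind of overlap was seen for 2 models. Rubcn (1700021K19Rik), an inhibitor gene of autophagosome maturation, had 107 and 160 reads and a ratio of 1.08 (0.838 to 1.39). Its neighbour Fyttd1, an mRNA export factor gene on the opposite strand, shares 149 bases with it at their starts. Fyttd1 had 58 and 162 reads and a ratio of 0.578 (0.421 to 0.785). With fewer than 62 HP1 alpha reads Fyttd1 could only be listed with a ratio below 1, so the gap between the neighbours was not read as a difference. Gm16286, which lies over 31.1% of the span of the spliceosome gene Txnl4a, had 41 and 106 reads and a ratio of 0.625 (0.425 to 0.904). Txnl4a had 50 and 127 reads and 0.636 (0.449 to 0.889). Gm16286 and Txnl4a also had fewer than 62 HP1 alpha reads, so they could only be listed with a ratio below 1. Under TMM scaling the interval of Gm16286 held 1 (0.487 to 1.04).

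The protein-coding models that are not read-through models numbered 28, with a median ratio of 0.975, against 0.862 for the 3021 other protein-coding rows. Of the 28, 13 had a ratio above 1, 7 had an interval above 1 and 7 had one below, which is 46.4%, 25% and 25%. Among the 3021 other rows these shares were 30.3%, 14.8% and 33.1%, and the differences were not tested. The 32 models with a span that are not read-through models, which include these 28, had a median span of 71.0 kb. For all listed genes it was 48.2 kb. As given below, the ratio was higher in wider genes over the whole table, and these shares were not matched for span. Called higher was 1 of the 28 (2210408I21Rik) and called lower 0, against 1.99% and 0.728% of the other rows. Many now have names that tell their function. Resf1 (2810474O19Rik), a factor that helps to silence endogenous retroviruses through histone methylation, had 145 and 260 reads and a ratio of 0.901 (0.730 to 1.11). Virma (1110037F02Rik), a subunit gene of the m6A RNA methyltransferase complex, had 128 and 230 reads and 0.899 (0.718 to 1.12). Neither ratio differed from 1 beyond counting error. Among genes of ubiquitin and membrane traffic, the ubiquitin ligase gene Hectd4 (Gm15800) had 214 and 337 reads and 1.03 (0.860 to 1.22). Vps35l (9030624J02Rik), of the endosomal retriever complex, had 94 and 163 reads and 0.931 (0.715 to 1.21).

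2700049A03Rik, also known as Talpid3, encodes a centrosomal protein needed for cilia and had 98 and 116 reads, a ratio of 1.36 (1.03 to 1.80). Cplane1 (2410089E03Rik), a ciliogenesis and planar polarity gene, had 133 and 272 reads and a ratio of 0.790 (0.637 to 0.975). Neither gene passed 2-fold, and under TMM scaling the interval of Cplane1 held 1 (0.730 to 1.12). Of the genes with more reads, 4932438A13Rik, the Kiaa1109 or Tweek gene of a bridge-like lipid transfer protein, had 215 and 382 reads and 0.909 (0.766 to 1.08). 2610507B11Rik, the Kiaa0100 gene, had 209 and 491 reads and a ratio of 0.687 (0.582 to 0.810).

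Of the 15 models that matched RefSeq under a newer name, 5 (33.3%) had an interval below 1 and 1 (6.67%) had one above, against 32.6% and 15.4% of all listed rows. Their median ratio was 0.931. Cip2a (C330027C09Rik), an inhibitor gene of protein phosphatase PP2A, had 67 and 159 reads and a ratio of 0.681 (0.504 to 0.911). Garre1 (4931406P16Rik), a Rac effector gene, had 72 and 170 reads and 0.684 (0.512 to 0.906). Under TMM scaling the intervals of both genes held 1. 9530068E07Rik, which keeps its clone name in RefSeq and is a transmembrane protein gene also known as Kct2, had 117 and 302 reads and 0.626 (0.501 to 0.777). The transcription factor genes Usf3 (Gm608) and Zfp950 (5830428H23Rik) had 0.974 (0.770 to 1.23) and 1.00 (0.748 to 1.33).

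RefSeq classed 6 models as lncRNAs, of which Gm20716 and Gm28043 are the read-through models described above. None of the 6 was called higher or lower, and 1 had a ratio above 1. Among the 24 other lncRNA rows, 4 were called higher, 2 lower and 12 had a ratio above 1, a difference that was not tested. Oip5os1 (1700020I14Rik), the lncRNA Cyrano that triggers decay of the microRNA miR-7, had 136 and 230 reads. Its ratio was 0.955 (0.767 to 1.19), with an interval that held 1. 3110039M20Rik had 60 and 151 reads and a ratio of 0.642 (0.468 to 0.871), the lowest of the 6. As 1 of the models with fewer than 62 HP1 alpha reads, it could only be listed with a ratio below 1.

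The remaining pair of lncRNAs carry small nucleolar RNAs (snoRNAs), which are cut from introns of their host and guide rRNA modification. 2410006H16Rik, on chromosome 11 from 62602877 to 62604806, holds Snord49b, Snord49a and Snord65. It had 71 and 109 reads and a ratio of 1.05 (0.769 to 1.43). 1110038B12Rik, on chromosome 17 from 34950235 to 34952471, holds Snord52 and a second snoRNA gene. It had 53 and 106 reads and a ratio of 0.808 (0.569 to 1.13). Neither differed from 1 beyond counting error. With fewer than 62 HP1 alpha reads, 1110038B12Rik could only be listed with a ratio below 1.

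For 32 of the 71 models no match in RefSeq was found, so their position, class and span are not given here. Their median ratio was 0.921, against 0.954 for the 39 with a match. Of the 32, 29 were Gm models, 9 of which (31.0%) had a ratio above 1, 3 (10.3%) an interval above 1 and 6 (20.7%) an interval below, against 30.9%, 15.4% and 32.6% of all listed rows. The values least subject to counting error came from the models with the most reads. Gm20388 had 2838 HP1 alpha reads and 3646 input reads, and its ratio of 1.26 (1.20 to 1.32) was the most precise of all the models. Gm26917 had 736 and 1130 reads and a ratio of 1.05 (0.957 to 1.16), with an interval that held 1. Gm28635 had 355 and 609 reads and 0.941 (0.824 to 1.07), and RP24-559D1.1 had 279 and 401 reads and 1.12 (0.961 to 1.31). Their place beside 1 depended on the scaling. Under TMM scaling the intervals of Gm26917 (1.098 to 1.325) and RP24-559D1.1 (1.102 to 1.505) lay above 1, while that of Gm28635 held 1 (0.944 to 1.23).

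Other unmatched models with many reads were lower without passing 2-fold. Gm28062 had 303 and 686 reads and a ratio of 0.713 (0.621 to 0.818), and Gm28177 had 255 and 518 reads and 0.795 (0.682 to 0.925). Gm28285 had 152 and 393 reads and 0.625 (0.515 to 0.755). Under TMM scaling the interval of Gm28177 held 1 (0.7815 to 1.061). Those of Gm28062 (0.712 to 0.938) and Gm28285 (0.590 to 0.866) stayed below 1. Some models had counts like those of a named gene, such as Gm28062 and Baz1b (304 and 688 reads), or Gm28036 and Cpne1, which both had 141 and 256. Positions of these Gm models are not given here, and 14.7% of all listed rows had an exact twin in both counts. The models Resf1, 9530068E07Rik, Cplane1 and Gm28043 had counts within 1% of Impad1, Loxl2, Cbfb and Xpo1, each of which lies on another chromosome.

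Together the models held 2.69% of the listed HP1 alpha counts and 2.53% of those of the input, a ratio of 1.06 (1.04 to 1.09). Gm20388, the model with the most reads, and RP23-407E2.5, with the highest ratio, were left out after the values were seen. Both had ratios above 1.06, so leaving them out had to lower the sum's ratio, though not by how much. Other models, such as Gm20696 with 818 and 830 reads and a ratio of 1.59, also lay above it and were not left out. Gm20388 alone supplied 20.6% of the HP1 alpha reads of the models and 17.4% of their input reads. Without Gm20388 the ratio was 1.02 (0.998 to 1.05), without RP23-407E2.5 it was 1.03 (1.01 to 1.05), and without both it was 0.979 (0.955 to 1.00). The 39 models with a RefSeq match had a ratio of 0.999 (0.964 to 1.03).

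The 39 models with a known span, from first to last base with introns, had a median span of 68.7 kb, against 48.2 kb for all listed genes with a span. Their ratio was higher in wider genes from 10 kb upward. The 15 models of up to 50 kb included 2 with a ratio above 1, and the 14 wider than 100 kb included 10. The median ratio was 0.881 for the 4 models of up to 10 kb, 0.687 for the 11 between 10 and 50 kb, 0.964 for the 10 between 50 and 100 kb, 1.09 for the 12 between 100 and 200 kb and 1.89 for the 2 above 200 kb. All listed genes had 0.731, 0.793, 0.891, 1.07 and 1.41 in the same classes, so the narrowest models did not follow the order seen over all genes. Spearman's rho between span and log2 ratio was 0.61 over the 39 models and 0.61 over all 3089 listed genes with a span, and Pearson's r on log10 span came to 0.52 and 0.60. These are descriptions across genes, which share the 2 libraries and are not replicates. Without the 7 read-through models rho was 0.63.

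**Figure D4:**
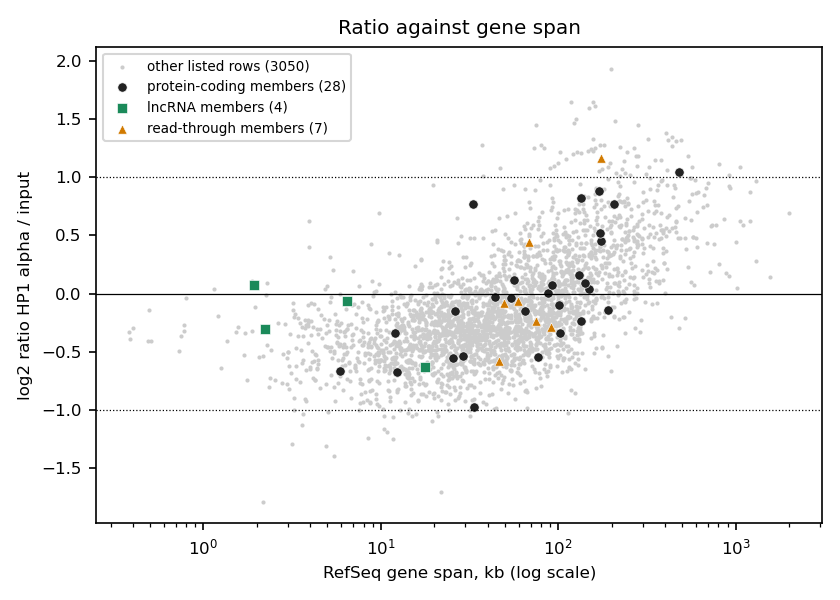
Log2 ratio of HP1 alpha over input (vertical) against RefSeq gene span in kb (horizontal, log scale) for the 39 models with a match and the other listed genes (grey). Circles are protein-coding models, squares lncRNAs and triangles read-through models; the models follow the slope of the grey points, with 2610008E11Rik above them at 33.2 kb.

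Set against the 200 listed genes nearest in span, the models had a median log2 difference of 0.14, against 0.0047 over all 3089 listed genes with a span. Of the 39, 23 (59.0%) were above 0, against 50.7% of the 3089, a difference that was not tested. Only 2610008E11Rik, a protein-coding gene on chromosome 10 from 79064374 to 79097600, then passed 2-fold, with a log2 difference of 1.10. Of the 3089, 1.23% were 2-fold above genes of like span and 0.129% were 2-fold below. It spans 33.2 kb, and of the 1301 listed genes between 10 and 50 kb, 10.3% had a ratio above 1. Gm20498, 2210408I21Rik and Umad1 were 0.85, 0.52 and 0.60 above genes of like span, and Tmem94 was lowest at -0.65. The snoRNA host 2410006H16Rik was 0.52 above and Oip5os1 0.39 above. The spans come from RefSeq and may differ from those used for counting.

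Of the models, 32 had a promoter window in RefSeq. These windows held a median of 19.5 CG dinucleotides, against 19.0 for the 2515 other listed genes with a window. With every window of a gene taken, 7 of the 32 models (21.9%) overlapped a window of a gene on the opposite strand, against 17.2% of the other listed genes. With 1 window per gene the shares were 6 (18.8%) and 15.7%. These overlaps were taken on windows of 300 bases, wider than the stretches printed above. The overlapping models included Rubcn with Fyttd1, Umad1 with Rpa3, Cip2a with Dzip3 and 2700049A03Rik with Timm9.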

How the data were processed

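The authors deposited 1 table with read counts per gene for an HP1 alpha eCLIP library and an input library, and a fold ratio. Per the submitters' processing notes, STAR 2.6.0c, featureCounts and GRCm38 were used; settings, strand and duplicate removal were not given in the sources used here. In each row the deposited fold equals the ratio of the counts multiplied by 1.66. The columns are headed MEF and mock, and mock was taken as the input. Columns of sample values not used numbered 0.

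Ratios are shares of listed counts; log2 values add a pseudocount of 0.5. All rows passed the minimum of 20 counts over both libraries. Of the 72 rows, 24 matched the RefSeq table of GRCm38.p6 by symbol, 15 by synonym and 33 not at all. Rows counted once when both counts lay within 1% and summed to at least 400. Members called, the 8 highest, 8 lowest and 8 most abundant, those under the listing limit, those with like counts and those overlapping listed genes were named by rule; others were chosen for their function or counts after their values were seen. Members and lists were chosen with earlier results of these data known. Alternatives used edgeR 4.0.16, DESeq2 1.42.0 and SciPy 1.17.1, and the calling rule was tested on simulated data.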

Additional observations from a re-analysis of the deposited data

How the results depend on the processing

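No paired analysis was possible because only a single library exists per group, and no library could be left out. Called higher were 3 models as reported, 5 under TMM scaling, 5 under DESeq2 scaling, 9 at 1.5-fold, 1 when at least 400 counts were asked for and 1 when set against genes of like span (2610008E11Rik). Of all listed rows, 2.36% were called higher as reported, 4.05% under TMM and 4.21% under DESeq2 scaling, and 7.63% at 1.5-fold, while 1.23% of those with a span were 2-fold above genes of like span. Called lower were 2 models as reported, under TMM and under DESeq2 scaling, and 8 at 1.5-fold, against 0.83%, 0.287%, 0.287% and 12.3% of all listed rows. None (0) was lower when at least 400 counts were asked for, with at least 100 counts in both libraries, against genes of like span or with RefSeq matches only. Both models called lower have under 100 HP1 alpha counts and no RefSeq match. Of all listed genes with a span, 0.129% were 2-fold below genes of like span. Shares of all listed rows are not given for the count minimums or for RefSeq matches only, so the numbers of models called there have no such comparison. The median log2 ratio of -0.10 was 0.10 with TMM scaling, 0.11 with that of DESeq2, 0.018 with at least 100 counts in both libraries and 0.14 against genes of like span. A ratio above 1 was seen in 27 models as reported and in 44 under TMM or DESeq2 scaling, where 17 signs turned. The share ratio of 1.06 was 1.22 under TMM scaling, 1.23 under DESeq2 scaling and 1.09 under the constant of the authors. Each of these multiplies every listed row by the same constant, so the place of the models within the table was unchanged. The share ratio was 1.10 for the 23 models with at least 400 counts, 1.10 with all 72 rows and 1.12 for the 44 models with at least 100 counts in both libraries. It was 0.999 with RefSeq matches only, 1.02 without Gm20388 and 1.03 without RP23-407E2.5. The settings with RefSeq matches only, without a model and with inner genes subtracted were chosen after seeing the data. The minimum of 20 counts removed no row. Low counts limit precision: the upper bound of an interval was 1.63 times the lower at the median and 2.71 times at the widest.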
